A study of Mus musculus with 12 samples.

Results

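Transcripts of 10 genes of glucose metabolism and of the response to low oxygen were followed here through 3 comparisons in Ocy454 cells, an osteocyte-like cell line from mouse. The genes were chosen by symbol: the glucose transporter gene Slc2a1, the glycolytic enzyme genes Hk2, Pfkl, Aldoa, Tpi1, Pgk1 and Ldha, the glycolysis regulator gene Pfkfb3, the angiogenic growth factor gene Vegfa and the carbonic anhydrase gene Car9. The choice was made with earlier results of these data known. All 10 were listed in each of the 3 deposited tables, which together list 11996 genes, so none was lost to the authors' filter on low values. The 12 samples form 4 groups of 3 in the labels: wild-type cells given parathyroid hormone (PTH), wild-type cells given PF431396, an inhibitor of focal adhesion kinase (FAK) and its relative PYK2, PDE8A KO cells, which lack the cAMP-degrading phosphodiesterase gene Pde8a by their label, and wild-type cells given vehicle. The tables' column names give DMSO as the vehicle and show it for the KO libraries too. The same vehicle libraries are the reference in all 3 tables, so the comparisons share them. The sources used here give no dose, no treatment time and no word on whether the KO line is 1 clone. Nothing says that libraries came from separate cultures, so the p-values rest on a spread between libraries that may be technical.

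Cells take up glucose through transporters such as GLUT1, encoded by Slc2a1, trap it with a hexokinase and break it down to pyruvate through a chain of enzymes, and lactate dehydrogenase then turns pyruvate into lactate. Pfkfb3 makes fructose 2,6-bisphosphate, the strongest known activator of phosphofructokinase, and so sets the pace of the pathway. All 10 genes are known targets of hypoxia-inducible factors (HIF), which accumulate when oxygen is low, and some, Vegfa among them, also respond to cAMP, the second messenger that PTH raises in bone cells. Levels below are normalised estimated counts, changes are log2 fold changes, ± is the SD after a level and the SE after a change, and "called" means an adjusted p below 0.05 in limma, adjusted over all genes tested, with a log2 change of at least 1.

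Each library held between 27712551 and 35747425 estimated counts. PF431396 libraries 1 and 3 had identical values and were counted once, which leaves n = 2 for PF431396 and n = 3 for the other groups. Vehicle library 1 stood apart: 9.29% of genes in the PTH table were at least 1 log2 unit below the mean of vehicle libraries 2 and 3, and 7 of the 10 genes followed here were among them, by 2.71 for Tpi1, 2.47 for Pfkl, 2.36 for Aldoa, 2.30 for Car9, 1.77 for Pgk1, 1.67 for Slc2a1 and 1.62 for Ldha. Pfkfb3, Hk2 and Vegfa were lower in it by 0.36, 0.19 and 0.09. Each change is therefore given with and without vehicle library 1. The labelled cell type was checked with 14 bone lineage markers, of which 11 were listed. Dmp1 and Phex were among them and the late osteocyte genes Sost, Fgf23 and Mepe were not. Pde8a itself lay at 2037 to 2438 in the 3 KO libraries, against 2579 to 3100 in the vehicle libraries, a log2 change of -0.39 ± 0.14 (adjusted p = 0.0681), so every KO library lay below every vehicle library and the change was not called.

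**Figure D1:**
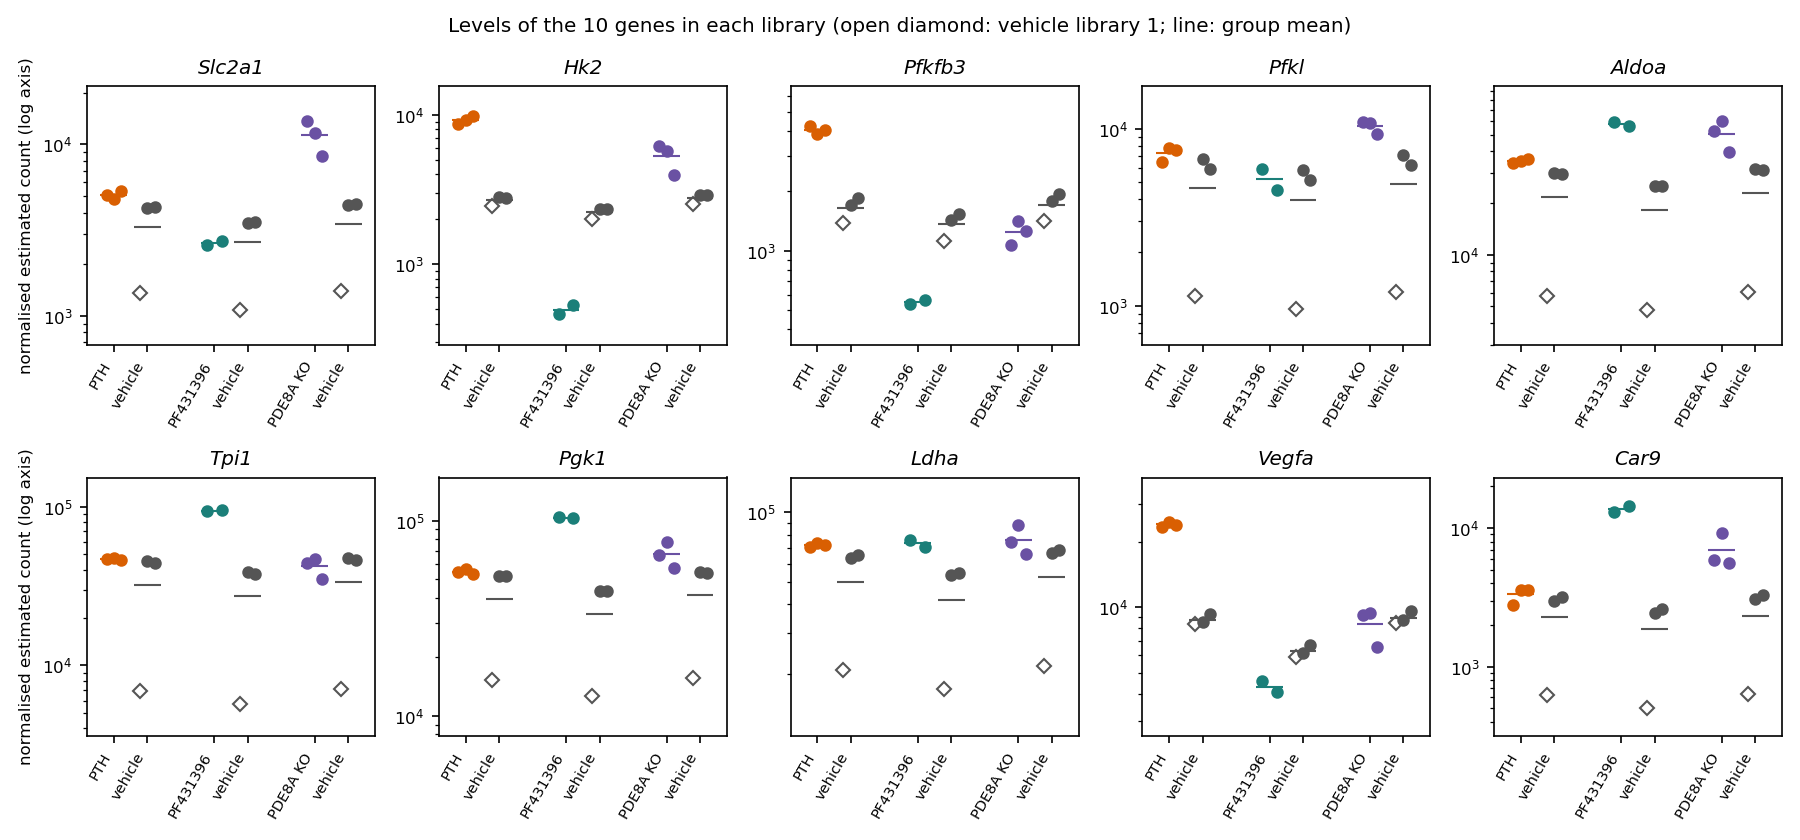
Level of each of the 10 genes (normalised estimated count, log axis) in every library of the 3 tables, each group drawn left of the vehicle libraries of its own table, with open diamonds for vehicle library 1 and lines at group means. Hk2, Pfkfb3 and Vegfa vary little among vehicle libraries and separate from them under PTH, while the other 7 genes have vehicle library 1 far below the rest.

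PTH raised Hk2, Pfkfb3 and Vegfa, and the other 7 genes were not called. These 3 of 10 stand beside 3.87% of 11775 genes called in that comparison (2.86% higher). Without vehicle library 1 they were again 3, beside 5.21%. Hk2, which encodes hexokinase 2, the inducible hexokinase of muscle, fat and many proliferating cells, was at 8645, 9223 and 9781 in the PTH libraries, against 2447, 2812 and 2785 in the vehicle libraries. Every PTH library lay above every vehicle library, and the change was 1.78 ± 0.11 (adjusted p = 0.00033), or 1.72 without vehicle library 1. Pfkfb3 was at 4219, 3874 and 4065 under PTH, against 1376, 1705 and 1842 in vehicle. Its groups did not overlap either, with a change of 1.31 ± 0.13 (adjusted p = 0.00206) and of 1.19 without vehicle library 1. Vegfa was at 23513, 24794 and 23941 under PTH, against 8380, 8512 and 9330 in vehicle. That is a change of 1.46 ± 0.09 (adjusted p = 0.000343), again with no overlap, and of 1.43 without vehicle library 1. Lack of overlap did not by itself mark out these genes. For Slc2a1, Ldha, Pgk1, Aldoa and Tpi1 every PTH library also lay above every vehicle library, and only Pfkl and Car9 overlapped. The share of all genes without overlap is not given here. The calls of Hk2, Pfkfb3 and Vegfa held with any 1 library left out. With the same total in every library, the median of all genes shifted to -0.12, and Hk2, Pfkfb3 and Vegfa were still called, at 1.66, 1.19 and 1.34.

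PF431396 moved the same pair of regulators the other way. Hk2 was at 461 and 531 in the PF431396 libraries, against 2012, 2358 and 2338 in vehicle, and fell by 2.17 on the log2 scale (SE 0.19, adjusted p = 0.00247), with -2.24 when vehicle library 1 was left out. Pfkfb3 was at 536 and 564 under PF431396, against 1123, 1418 and 1533 in vehicle. Both PF431396 libraries lay below every vehicle library, a change of -1.29 ± 0.21 (adjusted p = 0.00682), or -1.42 without vehicle library 1. Both calls held with any 1 library left out (highest adjusted p = 0.0259 and 0.0428). With library totals made equal, the changes were -2.70 for Hk2 and -1.82 for Pfkfb3. Vegfa was at 4550 and 4066 under PF431396, against 5924, 6138 and 6733 in vehicle. Its groups did not overlap either, but the change of -0.54 ± 0.15 (adjusted p = 0.0296) was short of the fold threshold. In all, 4 of the 10 genes were called under PF431396, 2 higher and 2 lower, beside 26.2% of 11484 genes (10.9% higher and 15.2% lower). Without vehicle library 1 there were 4 higher and 2 lower, beside 25.4% of genes.

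The difference between the PTH and PF431396 effects was tested on values relative to the vehicle mean of the same table. The opposite changes of Hk2 and Pfkfb3 were already known when the genes were chosen, so their p-values are no independent support. Hk2 was 3.95 ± 0.20 log2 units higher under PTH than under PF431396 (adjusted p = 1.05e-05), Pfkfb3 2.61 ± 0.13 (adjusted p = 1.13e-05) and Vegfa 2.00 ± 0.17 (adjusted p = 5.69e-05). With 1 library left out, the Hk2 difference ranged from 3.85 to 4.05 and that of Pfkfb3 from 2.57 to 2.64. Only the PTH and PF431396 libraries can move these differences much. The vehicle libraries are shared by both sides and nearly cancel, and the KO libraries enter only the SE. Car9, Tpi1 and Pgk1 differed in the other direction, by -2.35 ± 0.23, -1.26 ± 0.14 and -1.18 ± 0.14 (largest adjusted p = 0.000231). These 6 of 10 stand beside 35.1% of 11082 genes called in that difference. With library totals made equal, Tpi1 and Pgk1 came to -0.85 and -0.76, short of the fold threshold, and Slc2a1, at 0.63 as deposited, came to 1.05 and was called.

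The starts of the Hk2 and Pfkfb3 genes are shown because this pair moved in opposite directions under PTH and PF431396, and that of Car9 because it had the largest change of the 10 under PF431396. In GRCm38 the Hk2 gene spans chr6:82725025-82774454 (minus strand), Pfkfb3 spans chr2:11471433-11554077 (minus strand) and Car9 spans chr4:43506966-43513729 (plus strand). Of the other members, Slc2a1 spans chr4:119108711-119137983 (plus), Ldha chr7:46841475-46855627 (plus), Pgk1 chrX:106187100-106203699 (plus), Pfkl chr10:77986947-78010083 (minus), Tpi1 chr6:124810586-124814296 (minus) and Vegfa chr17:46016993-46032369 (minus). Each RefSeq window (GRCm38.p6) runs from 250 bases before to 50 after an annotated start: chr6:82774405-82774704 (minus) for Hk2, chr2:11553880-11554179 (minus) for the more upstream of both Pfkfb3 starts, and chr4:43506776-43507075 (plus) for Car9. Capitals mark ACGTG, the core of the HIF binding motif, and TGACG, the short form of the cAMP response element, on either strand, with overlaps run together.
Hk2: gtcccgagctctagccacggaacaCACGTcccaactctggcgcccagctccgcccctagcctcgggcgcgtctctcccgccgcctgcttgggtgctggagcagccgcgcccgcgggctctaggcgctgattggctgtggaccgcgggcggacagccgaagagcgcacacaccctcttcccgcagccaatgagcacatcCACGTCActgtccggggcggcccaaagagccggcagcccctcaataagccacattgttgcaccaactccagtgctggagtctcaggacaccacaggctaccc
Pfkfb3: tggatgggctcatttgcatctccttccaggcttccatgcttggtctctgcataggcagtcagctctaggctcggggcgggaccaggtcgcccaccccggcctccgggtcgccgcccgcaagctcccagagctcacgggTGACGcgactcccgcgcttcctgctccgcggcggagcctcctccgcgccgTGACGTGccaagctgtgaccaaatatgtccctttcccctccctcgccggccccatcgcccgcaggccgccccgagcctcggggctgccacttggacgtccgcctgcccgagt
Car9: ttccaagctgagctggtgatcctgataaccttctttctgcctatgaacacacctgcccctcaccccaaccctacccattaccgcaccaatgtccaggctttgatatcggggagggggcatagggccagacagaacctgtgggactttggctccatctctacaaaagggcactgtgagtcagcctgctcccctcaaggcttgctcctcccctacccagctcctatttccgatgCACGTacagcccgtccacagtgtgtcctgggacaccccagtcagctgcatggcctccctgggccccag
The Hk2 window holds CACGTCA 52 bases before the start and the Pfkfb3 window holds its reverse complement, TGACGTG, 62 bases before. The second Pfkfb3 window does not hold it. The first Ldha window, of a gene called in none of the 3 comparisons, holds ACGTG 5 times over both strands. That count takes each of 2 CACGTG sites, which read the same on both strands, once per strand. The window also holds the full cAMP response element TGACGTCA 12 bases before its start. The 7 letters TGACGTG contain both short motifs, and 2.01% of 32851 RefSeq promoter windows hold them on either strand, against 19.6% for ACGTG and 20.8% for TGACG. The longer motif was picked after these windows had been read. The window of the most upstream Vegfa start holds neither short motif, and its second window holds CACGTCA 211 bases before the start. A match describes letters only and shows no binding.

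Slc2a1 was called in the PDE8A KO cells and in neither treatment. Its levels were 13657, 11673 and 8559 in the KO libraries, against 1393, 4451 and 4501 in vehicle. All KO libraries lay above the vehicle libraries, and the change was 1.87 ± 0.44 (adjusted p = 0.0185), or 1.31 ± 0.17 without vehicle library 1. The call ended without KO library 1 (1.72, adjusted p = 0.0848) or KO library 2 (1.83, adjusted p = 0.0728). Under PTH, Slc2a1 was at 5080, 4820 and 5311, against 1352, 4267 and 4313 in vehicle, a change of 0.79 ± 0.43 that came to 0.24 without vehicle library 1. Under PF431396 it was at 2576 and 2740, against 1085, 3494 and 3534 in vehicle. The PF431396 libraries lay between vehicle library 1 and the other two, and the change of 0.16 ± 0.52 turned to -0.40 without vehicle library 1. The KO change exceeded the PF431396 change, by a PF431396 minus KO difference of -1.71 ± 0.19 (adjusted p = 0.000185), and the PTH change, by a PTH minus KO difference of -1.08 ± 0.17 (adjusted p = 0.00174). That second difference came to -0.93 without KO library 1, short of the fold threshold.

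Slc2a1 was the only one of the 10 called in the KO cells, beside 11.5% of 11592 genes called there (6.32% higher), and 2 were called without vehicle library 1, beside 12.1%. Car9 was the one added. Its levels were 5918, 9259 and 5557 in the KO libraries, against 632, 3067 and 3276 in vehicle, with no overlap, and its change was 1.86 ± 0.59 (adjusted p = 0.051), or 1.09 ± 0.19 without vehicle library 1 (adjusted p = 0.00205). Hk2 was at 6168, 5771 and 3957 in the KO, against 2518, 2931 and 2904 in vehicle, a change of 0.91 ± 0.19 (adjusted p = 0.0112) that was short of the fold threshold. KO library 3 was the lowest of the 3, and without it the Hk2 change was 1.10 and was called. Pfkfb3 did not move with it: 1071, 1405 and 1254 in the KO stood against 1414, 1775 and 1918 in vehicle, a change of -0.45 ± 0.17 (adjusted p = 0.0842), or -0.58 without vehicle library 1 (adjusted p = 0.00746). The PTH minus KO difference of Pfkfb3 was 1.76 ± 0.12 (adjusted p = 5.01e-05), that of Vegfa 1.57 ± 0.15 (adjusted p = 0.000207), and that of Hk2 0.88 ± 0.18 (adjusted p = 0.00509), the last short of the fold threshold. Pfkfb3, Vegfa and Slc2a1 make 3 of 10 genes called in that difference, beside 15.3% of all genes. In PF431396 minus KO, 4 of 10 were called, beside 33.2%: Hk2 at -3.08 ± 0.20, Slc2a1, Tpi1 at 1.49 ± 0.14 and Car9 at 1.35 ± 0.23. With library totals made equal, Tpi1 at 0.96 and Car9 at 0.82 were short of the fold threshold, and Pfkfb3 at -1.37 and Pfkl at -1.23 were called. Car9 in PTH minus KO, which was not called as deposited, was then -1.11 and called. Bone lineage markers changed too. Under PTH and under PF431396, 2 of the 11 were called higher and 0 lower. Without vehicle library 1 the counts were 2 higher and 2 lower under PTH, and 3 and 1 under PF431396. In the KO libraries 1 of the 11 was higher and 6 lower, beside 6.32% and 5.13% of all genes, or 1 and 7 without vehicle library 1. The summed level of the 11 was 118723 to 132028 in the KO and 64011 to 251306 in vehicle. In the KO, Ibsp, the bone sialoprotein gene, fell to 216 ± 79.9, against 22178 ± 13786 in vehicle (SD, n = 3 each). Whether that has a part in the changes of Slc2a1, Hk2 or Car9 was not tested, and in bulk RNA fewer cells of a type and less RNA per cell cannot be told apart.

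**Figure D2:**
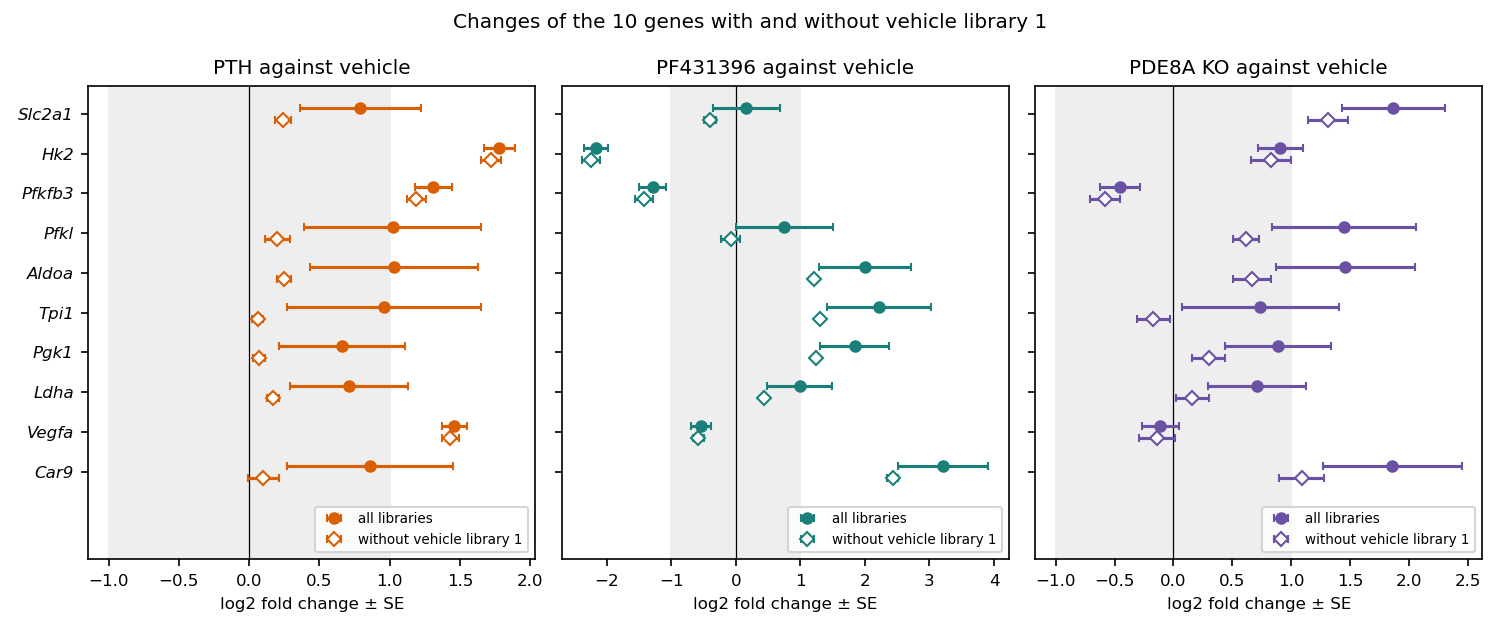
Log2 fold change against vehicle (± SE) of each of the 10 genes in the 3 comparisons, with all libraries (filled circles) and without vehicle library 1 (open diamonds), with a grey band between -1 and 1. Hk2, Pfkfb3 and Vegfa keep their values, whereas the PTH values of the other 7 move to between 0.06 and 0.25.

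Pgk1 was the only glycolytic enzyme gene of the 10 that was called higher under PF431396. The gene, which encodes phosphoglycerate kinase, was at 103930 and 103119 in the PF431396 libraries, against 12533, 43784 and 43664 in vehicle. Both PF431396 libraries were above all vehicle libraries, and the change was 1.84 ± 0.54 (adjusted p = 0.0392), or 1.24 ± 0.04 without vehicle library 1. Tpi1, encoding triose phosphate isomerase, was at 93550 and 95530 under PF431396, against 5712, 38725 and 37511 in vehicle. Its change of 2.22 ± 0.81 (adjusted p = 0.0722) was not called, and 1.31 ± 0.04 without vehicle library 1 was. Aldoa, the aldolase gene, was at 59336 and 56484 under PF431396, against 4786, 25180 and 25014 in vehicle, a change of 2.00 ± 0.71 (adjusted p = 0.067) that was likewise called at 1.21 ± 0.05 without vehicle library 1. Ldha stood at 76026 and 70533 under PF431396, against 17198, 53364 and 54848 in vehicle, with 0.99 ± 0.50 in all libraries and 0.44 without vehicle library 1. Pfkl, the liver-type phosphofructokinase gene, overlapped: 5895 and 4510 under PF431396 stood against 964, 5824 and 5116 in vehicle, with 0.75 ± 0.75, which turned to -0.08 without vehicle library 1. In the authors' deposited table for PF431396, which counts the identical libraries as 2, Aldoa and Tpi1 are also past both thresholds.

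Car9, which encodes a membrane carbonic anhydrase that acidifies the cell surface, had the largest change of the 10 under PF431396. It was at 12995 and 14508 in the PF431396 libraries, against 503, 2458 and 2625 in vehicle. The lowest PF431396 library was far above the highest vehicle library, and the change was 3.21 ± 0.70 (adjusted p = 0.0155), or 2.43 ± 0.09 without vehicle library 1. Leaving out either PF431396 library ended the Car9 and Pgk1 calls (lowest adjusted p = 0.0917 and 0.173), with changes of 3.29 and 3.13 for Car9 and 1.84 and 1.85 for Pgk1. Under PTH, Car9 was at 2809, 3602 and 3554, against 624, 2989 and 3191 in vehicle. Its groups overlapped, with 0.86 ± 0.59 and, without vehicle library 1, 0.10.

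How far the enzymes changed under PF431396 depends on the scaling of the libraries. With the same total in every library, the median of all genes shifted to -0.55, and 344 genes were called higher and 3470 lower, against 1257 and 1748 as deposited. Pgk1 was then at 1.31 and no longer called (adjusted p = 0.0824), Aldoa and Tpi1 at 1.47 and 1.69 were not called, Vegfa at -1.07 was called, and Car9 at 2.68 stayed called. With vehicle library 1 left out as well, Pgk1, Aldoa and Tpi1 came to 0.73, 0.69 and 0.80, below the fold threshold, Slc2a1 to -0.92, and Car9 to 1.92. The median of all genes was -0.53 in that setting. Hk2 and Pfkfb3 were called lower in each of these 4 settings. The share of counts from 13 mitochondrial protein-coding genes was 11.8% and 13% in the PF431396 libraries, against 3.89% to 5.19% in vehicle. Its part in these values was not tested.

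**Figure D3:**
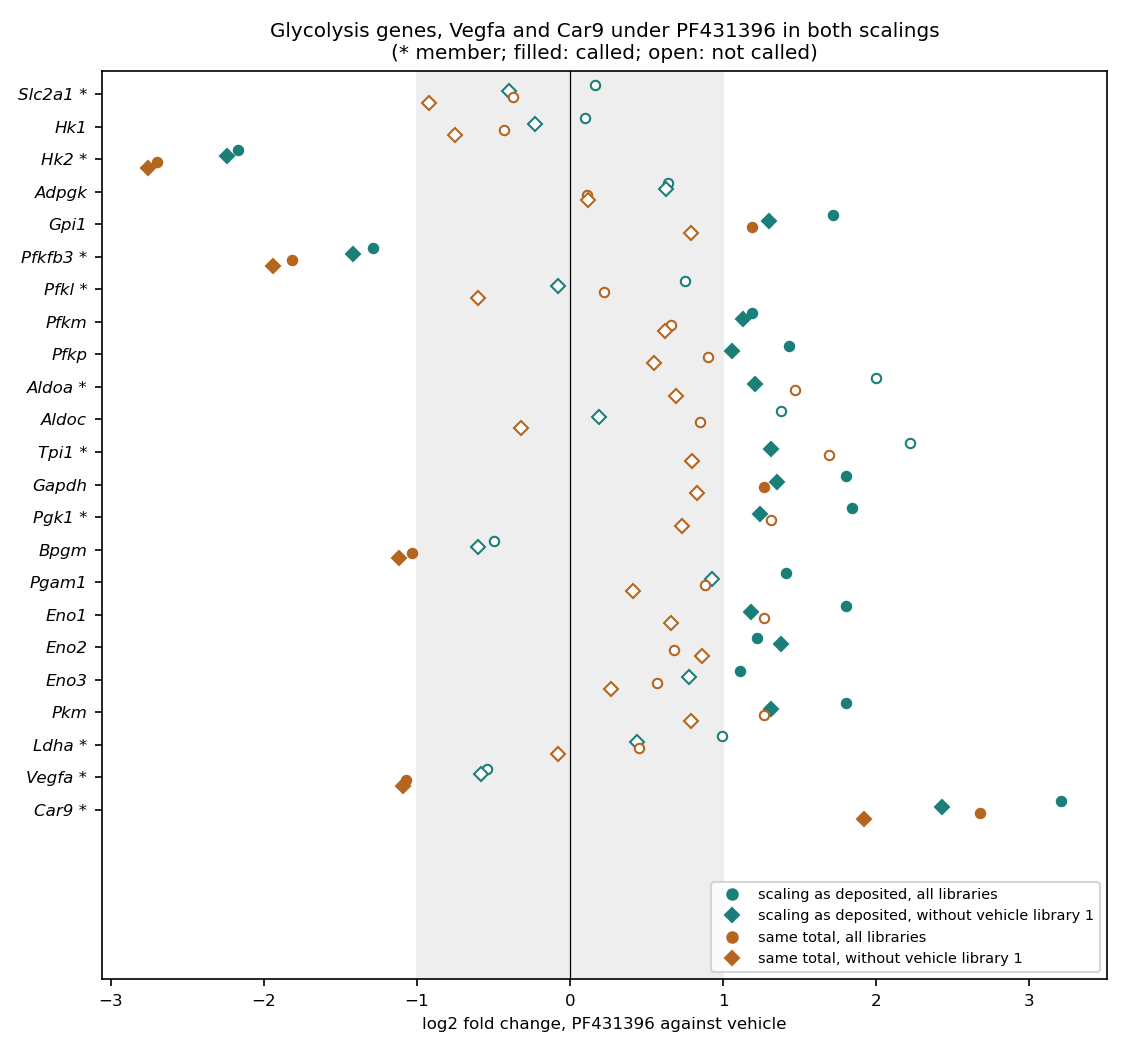
Log2 fold change under PF431396 of Slc2a1, Pfkfb3 and the measured glycolytic enzymes in pathway order, then Vegfa and Car9, with the deposited scaling and with the same total in every library, each with and without vehicle library 1 (filled: called). Hk2 and Pfkfb3 stay below -1 and Car9 above 1 in all 4 settings, while most enzymes from Gpi1 to Pkm fall inside the grey band when both choices change.

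Another 13 glycolytic enzyme genes were measured beside the members. Under PF431396, 9 of 13 were called higher and none lower, beside 10.9% and 15.2% of all genes. Without vehicle library 1 the count was 7 higher and none lower. It was 2 higher and 1 lower with the same total in every library, where 344 of 11484 genes were called higher and 3470 lower. When vehicle library 1 was also left out it was 0 higher and 1 lower, beside 271 and 3369 of all genes. Gapdh was at 293750 and 284628 under PF431396, against 44006, 115620 and 111738 in vehicle (1.80 ± 0.42, adjusted p = 0.0192, and 1.35 without vehicle library 1). Pfkm, the muscle-type phosphofructokinase gene, was the least touched by vehicle library 1 among those called: 2814 and 2781 under PF431396 stood against 1129, 1204 and 1356 in vehicle, a rise of 1.19 ± 0.17 (adjusted p = 0.00476). Gpi1 (1.72), Pkm (1.80), Eno1 (1.80), Pfkp (1.43), Pgam1 (1.41), Eno2 (1.22) and Eno3 (1.11) were the other calls. Of these, Pgam1 at 0.93 and Eno3 at 0.78 were short of the fold threshold without vehicle library 1. Without PF431396 library 1 only 2 of the 13 were called, and without library 2 only 1. Hk1, the constitutive hexokinase gene, was not called, at 3191 and 2424 under PF431396, against 1615, 3274 and 3270 in vehicle. The median of the 13 was 1.38, against -0.02 for all genes, and 1.06 without vehicle library 1. With the same total in every library it was 0.85, against -0.55 for all genes. With vehicle library 1 left out as well it was 0.55, against -0.53. The PTH comparison called 0 of the 13 in limma with or without vehicle library 1 and at an adjusted p below 0.05 with no fold threshold in all libraries. Of the 13, 2 had an unadjusted p below 0.05, beside 24.3% of all genes. The median was 0.48 and came to 0.08 without vehicle library 1. In the KO cells only Eno3 was called (1.16 ± 0.28, adjusted p = 0.0207), and 0.83 without vehicle library 1 was not, and its call also ended when any 1 KO library was left out. The KO count was 2 higher without vehicle library 2 and 3 without vehicle library 3.

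**Figure D4:**
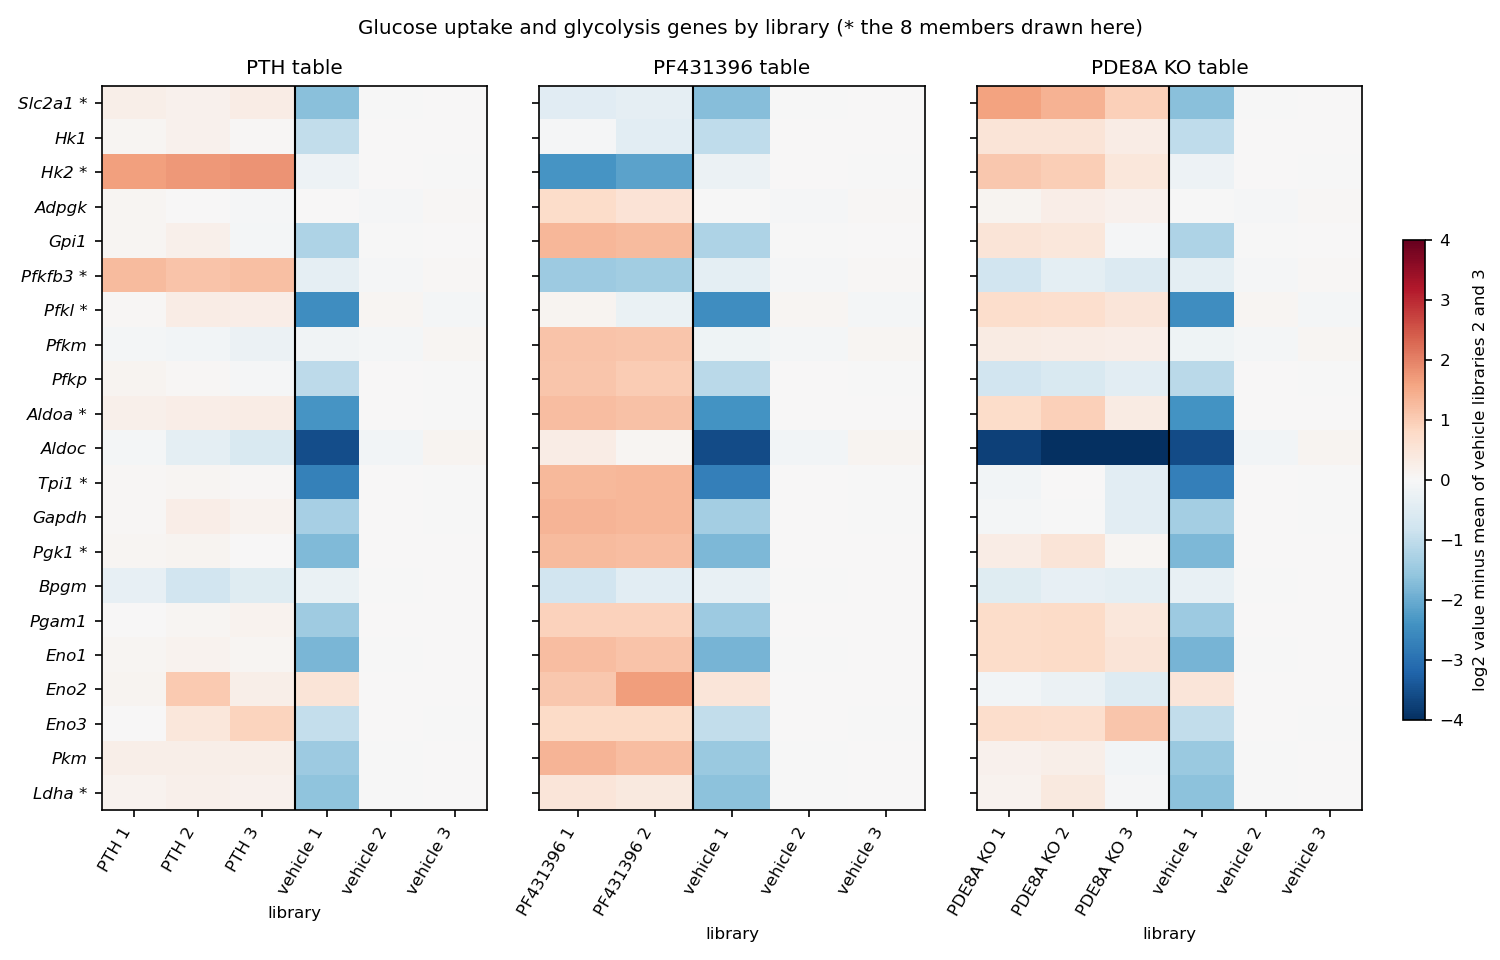
Log2 value of the glucose uptake and glycolysis genes in each library minus the mean of vehicle libraries 2 and 3 of the same table, in pathway order, with each group left of the vehicle libraries. PTH libraries stand out at Hk2 and Pfkfb3, PF431396 libraries are low at these genes and high at most later enzymes, KO libraries are low at Aldoc, and vehicle library 1 is low at most genes.

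Within enzyme families, isoforms were compared by level per kb of the longest coding transcript, and their order depends on that length. Hk2 was at 1672 ± 103 per kb under PTH, against 486 ± 36.9 in vehicle, and Hk1 at 953 ± 40.4, against 741 ± 255 (SD, n = 3 each). Hk2 was therefore above Hk1 in the PTH libraries, where their ranges of 1568 to 1774 and 915 to 995 do not overlap. Under PF431396 Hk1 was above Hk2, with Hk2 at 83.6 to 96.3 per kb and Hk1 at 567 to 746. Hk1 was also above Hk2 in each vehicle library of that table. The vehicle ranges, 365 to 428 for Hk2 and 378 to 765 for Hk1, overlapped only through vehicle library 1, the lowest for both genes. Aldoc, the brain-type aldolase gene, was a minor form throughout. It was at 73, 56 and 59 counts in the KO libraries, against 83, 931 and 1075 in vehicle. Vehicle library 1 lay at the level of the KO libraries, and the change was -2.79 in all libraries (adjusted p = 0.0508) and -3.98, called, without vehicle library 1.

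Of the other fructose 2,6-bisphosphate enzymes, Pfkfb4, an isoform strongly induced by low oxygen, rose under PTH to 1067 ± 249, against 283 ± 61.9 in vehicle (1.91 ± 0.24, adjusted p = 0.00495, and 1.72 without vehicle library 1). It was 1 of 4 called there, and limma called 0 of 3 under PF431396 and 0 of 4 in the KO, with none at an unadjusted p below 0.05, beside 49.3% and 42.1% of all genes. Per kb, Pfkfb3 remained the leading form in PTH cells at 807 to 879, against 252 to 387 for Pfkfb4. Among 8 other glucose and lactate transporter genes, Slc2a3, which encodes the high-affinity transporter GLUT3, was called higher under PTH at 1.83 ± 0.27 (adjusted p = 0.0096) and in the KO at 2.03 ± 0.28 (adjusted p = 0.00264). Its level was 124 to 157 per kb under PTH and 139 to 205 in the KO, where Slc2a1 was at 1479 to 1629 under PTH and 2625 to 4189 in the KO. The PTH call of Slc2a3 ended without PTH library 1 or 3 (highest adjusted p = 0.07). Bsg, which encodes the chaperone of lactate transporters, was called higher under PF431396 at 1.98 ± 0.34 and in the KO at 1.28 ± 0.29, where it came to 0.93 without vehicle library 1. Both Bsg calls ended when library 1 or 2 of PF431396 or of the KO was left out. Slc2a10 fell in the KO to 119 ± 17.9, against 640 ± 67.2 in vehicle (-2.42 ± 0.20, adjusted p = 0.000386).

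At the pyruvate dehydrogenase gate, kinases of the Pdk family turn off the pyruvate dehydrogenase complex and the Pdp phosphatases turn it on. Pdk4 was the only 1 of 13 called under PTH, at 4838 ± 229, against 1091 ± 194 in vehicle (2.16 ± 0.15, adjusted p = 0.000526). Under PF431396, Pdk1 rose by 2.12 ± 0.63, and Pdp1, Pdp2 and Dld, the last a subunit of the complex, fell by 2.84, 1.34 and 1.12 on the log2 scale. Without vehicle library 1, Pdk1 came to 1.42 and Dld to -0.84. The Pdk1 and Dld calls ended without either PF431396 library (highest adjusted p = 0.19 and 0.163), and that of Pdp2 without vehicle library 2 or 3 or PF431396 library 2. With the same total in every library, 0 of the 13 were called higher and 4 lower, beside 344 and 3470 of 11484 genes. No gene of this list was called in the KO cells by limma, with or without vehicle library 1, and 3 of 13 had an unadjusted p below 0.05. In the list of 17 pentose phosphate and glycogen enzymes, none was called under PTH in limma (10 had an unadjusted p below 0.05). Gbe1, the glycogen branching enzyme, rose under PF431396 (1.25 ± 0.21), and Gys1, muscle-type glycogen synthase, rose in the KO (1.28 ± 0.24). Without vehicle library 1 the Gys1 change came to 1.00, just short of the fold threshold, and its call ended.

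The HIF subunit and oxygen sensor genes were measured at 8, 8 and 6 under PTH, under PF431396 and in the KO. None was called under PTH or in the KO by limma, and 3 of 8 and 1 of 6 had an unadjusted p below 0.05. Under PF431396, Vhl, which encodes the subunit that marks HIF for destruction, fell to 325 ± 92.1, against 2223 ± 483 in vehicle (-2.78 ± 0.27, adjusted p = 0.00262). Egln2, a prolyl hydroxylase that primes HIF for Vhl, fell by 1.46 (SE 0.17, adjusted p = 0.00301), and Egln1, the main prolyl hydroxylase and itself a HIF target, rose by 1.79 ± 0.43, a call that ended without either PF431396 library. Of 27 other hypoxia target genes, the PTH comparison called 1, the mTOR inhibitor gene Ddit4, at 7775 ± 1119 under PTH, against 1558 ± 765 in vehicle (2.47 ± 0.41, adjusted p = 0.0145), a call that ended when any 1 PTH library was left out. PF431396 called 9 higher and 4 lower of 26 (10.9% and 15.2% of all genes), 6 higher and 7 lower with the same total in every library, and 2 higher and 3 lower without PF431396 library 1 and likewise without library 2. Those 2 shares hold for the scaling as deposited. With the same total, 344 of 11484 genes were called higher and 3470 lower, beside the 6 and 7 of this list. The 9 called higher as deposited include the collagen-modifying genes Plod2 (2.34 ± 0.34), P4ha1 (2.02) and P4ha2 (2.03) and the oxidoreductase gene Ero1a (1.88 ± 0.15). The lower 4 were Cited2 (-2.41), which restrains HIF, Hmox1 (-2.68), Bhlhe40 (-2.57) and Ddit4 (-1.84). In the KO, Ero1a (1.91 ± 0.19) and Ddit4 (1.77 ± 0.42) were called higher and Rora (-2.49 ± 0.17) lower, of 26. The Ddit4 call ended without KO library 1 or 2 (highest adjusted p = 0.0836), and the count was 4 higher without vehicle library 2 and 7 without vehicle library 3. Of the list of 27, 18 were at least 1 log2 unit lower in vehicle library 1 than in vehicle libraries 2 and 3, and without that library the calls were 4 higher and 2 lower under PTH, 10 and 6 under PF431396, and 2 and 2 in the KO.

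Among the relatives of Vegfa, no other ligand or receptor gene of 7 was called under PTH in limma (3 had an unadjusted p below 0.05). Per kb, Vegfa was at 6813 to 7185 under PTH, where Vegfb was at 656 to 911. Under PF431396 Vegfb, at 1368 to 1421, lay above Vegfa, at 1178 to 1318, whereas in the vehicle libraries of that table Vegfa, at 1717 to 1951, lay above Vegfb, at 782 to 832. In the KO their ranges overlapped, at 1906 to 2721 for Vegfa and 2043 to 2603 for Vegfb. These orders rest on the longest coding transcripts, of 3.451 kb for Vegfa, which has 8 coding transcripts, and 1.281 kb for Vegfb. Which transcripts the cells express was not measured, so the order of Vegfa and Vegfb under PF431396 is uncertain. In the KO, 4 of 7 were called higher and 1 lower: Vegfd (2.68 ± 0.29), Flt1 (1.48 ± 0.26), Vegfb (1.12 ± 0.14), Vegfc (1.03 ± 0.28, a call that ended without vehicle library 1 or 2 or KO library 1 or 2) and, lower, Pgf (-2.74 ± 0.44), while Vegfa itself was at 9200, 9389 and 6579 in the KO, against 8499, 8742 and 9588 in vehicle, with overlap. Under PF431396, Vegfd, Flt1 and Nrp1 were called higher, none was with the same total in every library or without PF431396 library 1, and 1 was without PF431396 library 2 or vehicle library 2 or 3. Of the carbonic anhydrase and acid-base transporter genes beside Car9, none of 10 was called under PTH in limma (4 had an unadjusted p below 0.05), 1 of 11 under PF431396 (Slc4a4, 1.33 ± 0.34) and 2 of 10 in the KO (Car6, 1.89 ± 0.49, and Car5b, 1.07 ± 0.32). Each of these 3 calls ended when any 1 library of PF431396 or of the KO was left out. Per kb, Car9 was the leading form under PF431396, at 6423 to 7171, with the next highest, Car13, at 380 to 454. Cd68 and Ctsk, the 2 of 6 macrophage and osteoclast markers listed, were also called higher under PF431396 (2.57 ± 0.36 and 2.32 ± 0.23), with a summed level of 3703 to 4809, against 708 to 865 in vehicle. In the KO 1 of these 2 was called higher. Vwf, the 1 of 4 endothelial markers listed, was called higher under PF431396 (2.40, at 1209 to 3353, against 238 to 551 in vehicle) and lower in the KO (-2.52, at 36.4 to 197, against 336 to 772 in vehicle), while Pecam1, Cdh5 and Tek were in none of the tables. Of 5 chondrocyte markers, 1 was called higher in each comparison, Sox9 under PTH and in the KO (1.33 in both) and Comp under PF431396, and Col2a1, Acan and Col10a1 were in no table. Of 5 muscle markers 2 were listed, with 1 called higher and 1 lower in the KO, and none of 4 adipocyte markers was listed. The part of these markers in the values above was not tested. The pan-leukocyte gene Ptprc and the macrophage genes Csf1r and Adgre1 were in none of the 3 tables.

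**Figure D5:**
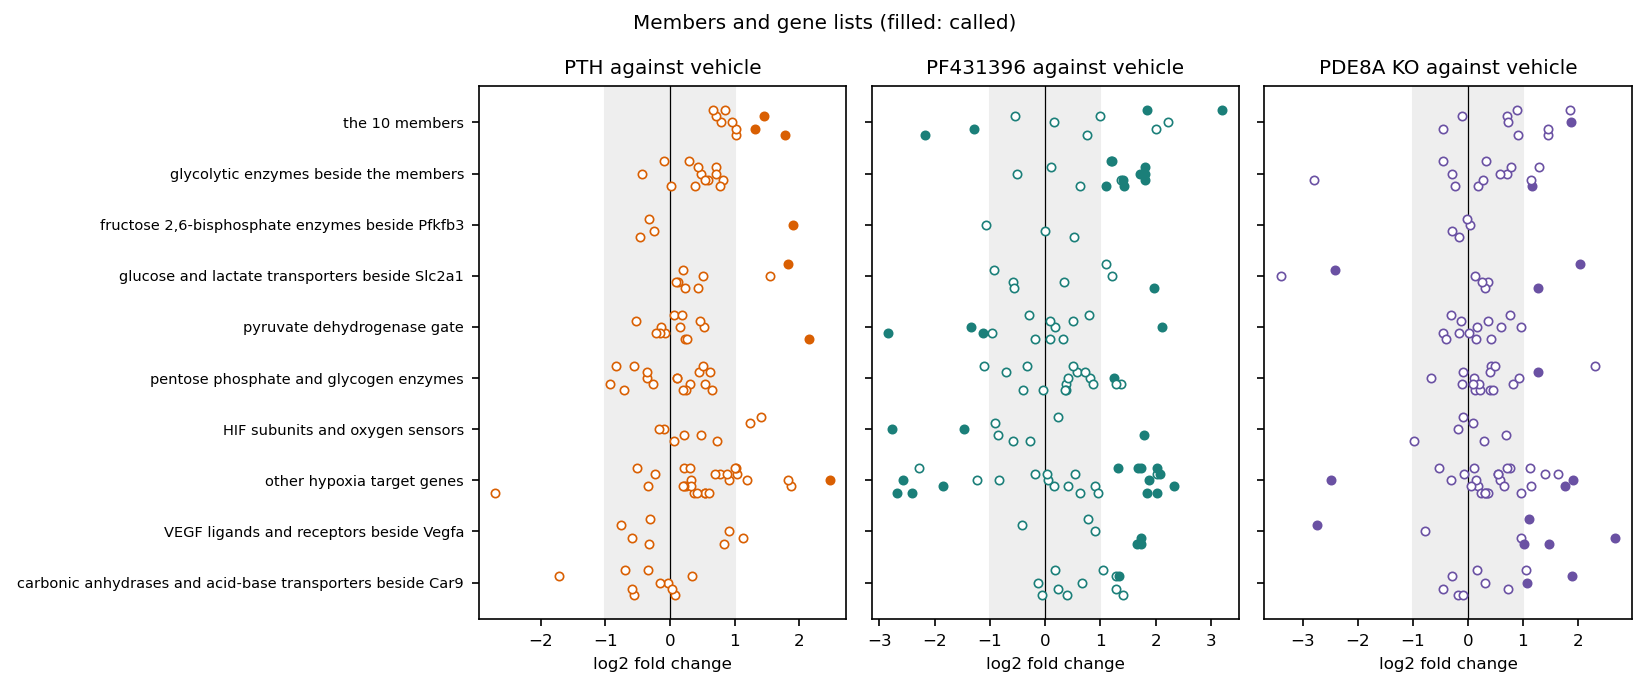
Log2 fold change against vehicle, all libraries, of the 10 genes and of the measured genes of each list in the 3 comparisons (1 point per gene, filled where called, grey band between -1 and 1). PTH has few filled points outside the 10 genes, and PF431396 has 9 among the glycolytic enzymes.

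The genes whose values over the 8 treated and knockout libraries lay nearest to each of 4 members were found by the Euclidean distance of vehicle-relative log2 values among 10257 genes. For Hk2 they were Pnrc1, Gadd45a and Arl4c (distances 0.99, 1.00 and 1.37), for Pfkfb3 Gm8116, Hbp1 and Smurf2 (0.55, 0.60 and 0.61), and for Vegfa Rnf19b, Trp53inp2 and Cmip (0.53, 0.64 and 0.72). Those of Car9 were more distant, with Tle2, C1s1 and Aspn at 1.68, 1.68 and 1.76. Pnrc1, the nearest to Hk2, changed by 1.73 under PTH, -1.57 under PF431396 and 0.70 in the KO. The Aldoa symbol stands for 2 adjacent gene identifiers on chromosome 7, so which of them its row counts is uncertain. Ldha, Pgk1, Tpi1, Aldoa and Gapdh have near-identical processed pseudogenes between which transcript quantification can split reads.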

How the data were processed

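RNA sequencing measured transcript levels in 12 samples. The submitters' processing notes name FastQC 0.11.5, Salmon, DESeq2 and the build GRCm38. Not given in the sources used here: annotation and remaining versions. The per-library signal the authors deposited is a normalised estimated count: all values were whole multiples of 1 factor per library within 0.02 counts, and the lowest estimated count listed was 11. The deposited log2 fold changes and adjusted p-values are the authors' own and are used only where named.

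Rows without a gene name were left out (8 for PTH, 6 for PF431396, 8 for the KO, at most 0.0249% of a library's counts), as were 1036792 empty rows of the PTH table. Each table was fitted alone with limma 3.58.1 (R 4.3.3, statmod 1.5.0, robust variance with a trend) on log2 of the value plus 1, which understates changes of low genes, with Benjamini-Hochberg adjustment over all genes. The thresholds are the adjusted p and fold the series states. PTH, PF431396 and KO effects were set against each other by limma contrasts of 8 libraries over 11082 genes after subtracting the vehicle mean of each table, because the tables were scaled separately. The alternatives were other pseudocounts, a mean of at least 100, the same total in every library, a replicate block, limma without robust variance, no fold threshold and each library left out. The fit was tested on simulated data. Replicate numbers did not pair libraries (correlations of same-numbered deviations between -0.05 and 0.10). Named genes are the members, the 3 list genes with the smallest adjusted p in each list, the 3 genes nearest to Hk2, Pfkfb3, Vegfa and Car9, Pde8a, and markers. Further called list genes and Gapdh, Hk1, Aldoc, Vegfb and Car13 were named after their values were seen. Gene positions and transcript lengths came from GENCODE M21, promoter windows from RefSeq. The members, the 9 gene lists and the rules were chosen with earlier results of these data known. Python 3.11.15 with pandas 2.3.3, matplotlib 3.10.9 and numpy 2.4.6 made the tables and figures.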

Additional observations from a re-analysis of the deposited data

How the results depend on the processing

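Over the 10 genes and all 6 comparisons, 475 of the values with 1 library left out kept their direction and call, 14 became called, 7 lost the call and 4 reversed. Other pseudocounts and the filter on the mean changed no call. The count-model tests planned as alternatives were not run, although whole estimated counts could be recovered from the deposited values. For all genes, the PTH count was 908 with no fold threshold and 219 to 614 with 1 library left out, the PF431396 count 1756 to 2917 with 1 left out, and the KO count 3223 with no fold threshold. For the 10 genes, the PF431396 count was 2 to 6 with 1 library left out and 7 with the replicate block. The KO count was 0 to 2 with 1 left out, where 967 to 1405 of 11592 genes were called. It was 2 with the same total (1329 of all genes), with no fold threshold (3223), and with the same total and without vehicle library 1 (1408). It was also 2 with the replicate block and without robust variance. The counts of all genes with the replicate block and without robust variance are not given here. The block made 4 further calls in all and ended none. Because replicate numbers do not pair libraries, this bears on the fit only.

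Slc2a1 under PF431396 ranged from -0.40 to 0.45 with 1 library left out and turned to -0.37 with the same total and to -0.92 with that and without vehicle library 1. Pfkl ranged from -0.08 to 1.21 with 1 library left out and turned to -0.60 with both, and Ldha to -0.08 with both. Tpi1 in the KO ranged from -0.17 to 1.20 with 1 left out and turned to -0.16 with both, and Vegfa in the KO ranged from -0.20 to 0.06, the highest without KO library 3. Pgk1, Tpi1 and Car9 under PTH came to -0.04, -0.05 and -0.01 with both. Ldha reversed in PTH minus PF431396 (0.13) and in PF431396 minus KO (-0.25) with the same total. Ankrd37, a hypoxia target outside the members, had 0.18 in the KO, -1.55 to 1.07 with 1 library left out and -1.54 with the same total and without vehicle library 1. Under PTH the share of called genes that were higher was 73.9%, and 62.6% with the same total, and 61.1% and 49.5% without vehicle library 1. The cause of these changes was not tested. Leaving out vehicle library 1 together with the same total was chosen after seeing the data, as were the list counts without each library. With 2 PF431396 libraries, 1 left out leaves a lone library that is assumed to vary like the others.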
